A study of Mus musculus and Oryctolagus cuniculus and Sus scrofa with 20 samples.

Results

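miR-26a-5p, miR-148a-3p and miR-152-3p are 3 of the 686 mature mouse miRNA entries whose reads were counted in 20 small RNA libraries of male germ cells and testes (the full reference table holds 1660 entries). They were chosen by their levels in rabbit testis. There miR-26a-5p and miR-148a-3p were among the 9 most abundant of the 686 entries at every age, while miR-152-3p ranked 40th to 47th. Ranks here and below leave out miRNAs without an entry, such as miR-143-3p and miR-30d-5p. The rabbit levels are therefore given below as a description, with no test. Reads of 18 to 26 nt whose first 18 nt equal those of the mouse mature miRNA were summed in each library and given as RPM, the reads scaled to 1000000 miRNA reads of that library. No level was set as a limit, so no miRNA lies just inside or just outside the choice.

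Every group is 1 library of total RNA, all from wild type males without treatment unless a knockout is named. The mouse stage series, labelled C57BL/6, holds cultured spermatogonia stem cells (SSCs, with no age given), pre-leptotene and leptotene spermatocytes from mice of postnatal day 9, zygotene spermatocytes from day 13, pachytene spermatocytes and round spermatids (labelled round sperms) from day 25, and mature sperm with no age given. A second set of SSC cultures, labelled C57BL/6 x DBA2 F1 and postnatal day 15, holds a wild type control, a miR-741 knockout made with TALEN nucleases and one made with CRISPR. These SSCs carried an actin-EGFP transgene and were grown on mouse embryonic fibroblast (MEF) feeder cells, and the knockouts were picked as single colonies after plasmid transfection, so each line stands for 1 edited clone. Rabbit testes were taken at postnatal days 10, 30, 60, 70, 80, 90, 110 and 180, and an exogenous spike-in was added to their RNA. Adult pig and adult rat testes gave 1 library each. The labels do not say whether a library holds 1 animal or a pool. The knocked-out miRNA checked the labels: miR-741-3p had 80096 reads in the control culture, 3 in the TALEN line and 5 in the CRISPR line.

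miRNAs are short RNAs cut from hairpin precursors that guide Argonaute proteins to messenger RNAs, mainly through the seed, the bases near the 5′ end. The miR-26 hairpins lie in introns of genes of the small C-terminal domain phosphatases and miR-26a is known for repressing Ezh2, while the family of miR-148a and miR-152 is known for repressing the DNA methyltransferase Dnmt1. The 3′ end of a mature miRNA varies: Drosha and Dicer can cut a base early or late, which leaves bases that match the hairpin, and terminal nucleotidyltransferases can add uridines or adenosines that do not. miR-26a is a known substrate of the uridylyltransferase TUT4.

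The mature sequences are shown because both seeds and the few bases that separate relatives decide what a read can be assigned to. They are from RefSeq on mouse GRCm38.p6, with the seed (bases 2 to 8) in capitals. miR-26a-5p shares its seed with miR-26b-5p, and miR-148a-3p and miR-152-3p share theirs with miR-148b-3p; these 2 relatives were followed beside the 3 members.
miR-26a-5p: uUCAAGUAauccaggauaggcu
miR-26b-5p: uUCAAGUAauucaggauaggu
miR-148a-3p: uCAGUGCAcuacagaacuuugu
miR-148b-3p: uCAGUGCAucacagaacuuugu
miR-152-3p: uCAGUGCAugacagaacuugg
Counted from 1 at the 5′ end, miR-26b-5p differs from miR-26a-5p by C11U and C21U. miR-148b-3p differs from miR-148a-3p by C9U and U10C, and miR-152-3p from miR-148a-3p by C9U, U10G and U20G. miR-152-3p and miR-148b-3p differ only by C10G and U20G, hence by 1 base within the 18 nt used for matching.

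miR-26a-5p comes from 2 hairpins with the same mature sequence, Mir26a-1 (mature miRNA at chr9:119031811-119031832, plus strand, in an intron of Ctdspl) and Mir26a-2 (chr10:126995543-126995564, plus strand, in an intron of Ctdsp2), so its reads cannot be divided between them. Mir148a gives miR-148a-3p at chr6:51269829-51269850 on the minus strand, outside protein-coding genes and between Npvf and Nfe2l3. Mir152 gives miR-152-3p at chr11:96850439-96850459 on the plus strand, in an intron of Copz2, which encodes a coatomer subunit. The relatives have similar hosts: Mir26b lies in an intron of Ctdsp1 and Mir148b in an intron of Copz1, the paralogue of Copz2.

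The libraries differed widely in the share of reads that were miRNAs, and this sets the scale of every level below. Among the mouse stages it went from 1.33% (pachytene) and 2.08% (round spermatids) to 45.9% (pre-leptotene), with 25.0% in SSCs and 13.7% in mature sperm. It was 53.3% at rabbit day 10 and 7.01% at day 180, and 4.13% in rat testis. The miRNA reads counted equalled 61.3% of the reads lying whole within mouse hairpins in rat, 71.0% in pachytene and 76.0% in round spermatids. The other mouse stages had 92.7% to 99.3% and pig 102%, so RPM runs high in those 3 libraries beside the others. The X-linked miR-506 family, to which miR-741 belongs, took 75.3% of miRNA reads in leptotene spermatocytes, 8.06% in mature sperm and at most 0.157% in rabbit. The rabbit value counts only reads that match the mouse sequences, so rabbit members of the family that differ from mouse are not in it. Counts of the members were 158 (miR-152-3p in pachytene) to 603977 (miR-26a-5p at rabbit day 60). Since no group has a replicate, the 95% intervals given here (exact Poisson, exact binomial or Clopper-Pearson) cover counting error only, and a difference compares libraries, not conditions. In bulk libraries, fewer cells of a type and less RNA per cell cannot be told apart.

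In the mouse stage series miR-26a-5p was high at both ends by its share of miRNA reads. SSCs had 32494 RPM, and the spermatocytes 10694 (pre-leptotene), 10095 (leptotene), 16616 (zygotene) and 19347 (pachytene). Round spermatids had 10344 and mature sperm 27281. SSCs and mature sperm were therefore the highest libraries, and pre-leptotene, leptotene and round spermatid libraries the lowest; the counting interval of round spermatids (10061 to 10633) overlaps those of both neighbours in that order. With TMM factors (scaling factors that centre the bulk of miRNAs) SSCs lose that place, at 16418. Mature sperm loses it per 1000000 reads of any kind, at 3739 against 3939 to 8108 from SSCs to zygotene, and without the miR-506 family. The low places of pre-leptotene and leptotene depend on the scaling too. Per all reads these libraries had 4912 and 3939, against 258 in pachytene and 215 in round spermatids. Without the miR-506 family both lay above pachytene and mature sperm. With TMM factors fitted to the first step pre-leptotene lay above SSCs (log2 change 0.48). miR-26a-5p ranked between the eighth (SSCs and mature sperm) and the 18th most abundant miRNA (round spermatids).

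miR-148a-3p was highest in SSCs and lowest in mature sperm, with 19590 RPM in SSCs, then 10221, 10851, 11933 and 7689 from pre-leptotene to pachytene spermatocytes, 7257 in the round spermatid library and 6560 in that of mature sperm. The 3 last stages are the lowest, with overlapping counting intervals between pachytene and round spermatid libraries. With TMM factors or without the miR-506 family leptotene is the highest library instead. Mature sperm is not the lowest under 5 of the 8 other settings: per all reads it had 899, against 103 in pachytene. miR-152-3p was likewise highest in SSCs and lowest in mature sperm, at a much lower level: it had 2209 RPM in SSCs, then 922, 831, 895 and 520 (158 reads) from pre-leptotene to pachytene, 382 in round spermatids (187 reads) and 286 in mature sperm. Pre-leptotene and zygotene values had overlapping counting intervals. SSCs lose the highest place of miR-152-3p with TMM factors. Mature sperm loses the lowest one when the whole mature sequence had to match and per all reads, where it had 39.2 against 6.93 in pachytene. With TMM factors fitted to the last step alone it also lay slightly above round spermatids (log2 change 0.08).

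**Figure D1:**
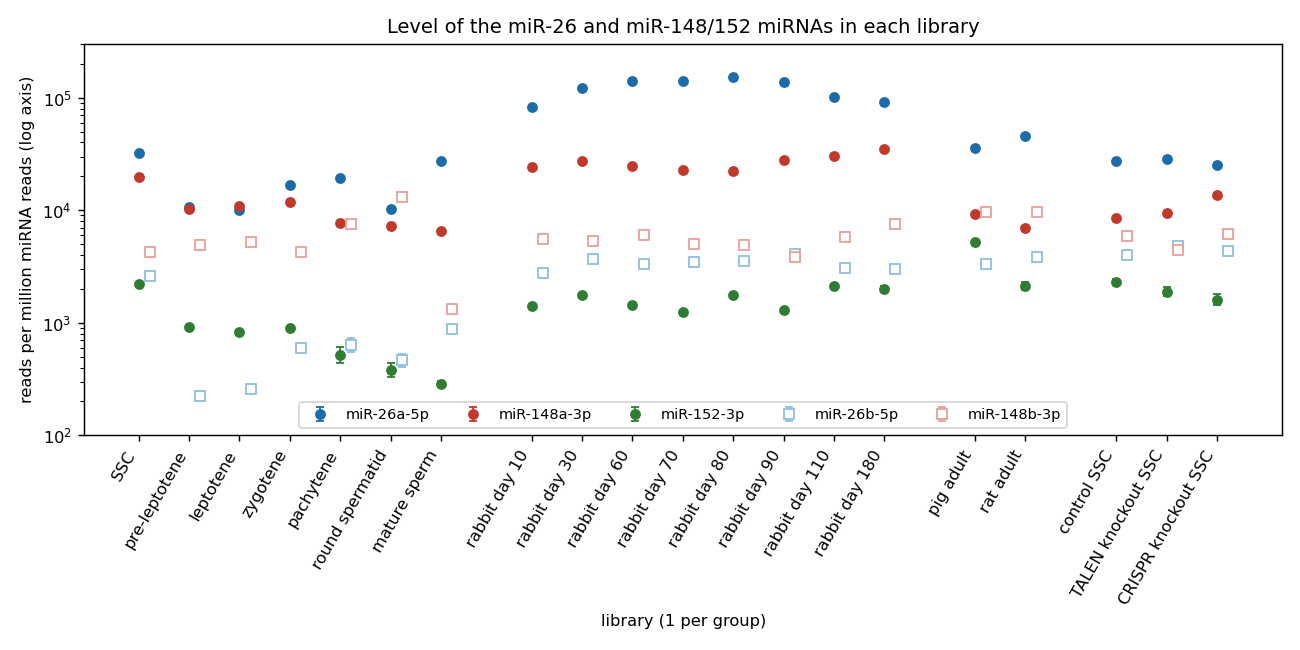
Level of the 3 miRNAs (filled circles) and of their seed relatives (open squares, drawn slightly to the right) in each of the 20 libraries, in RPM on a log axis; bars are exact Poisson 95% intervals of the counts. miR-26a-5p is highest in rabbit, up to 153747 at day 80, and miR-148b-3p exceeds miR-148a-3p in round spermatids (12990 against 7257).

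Between consecutive mouse stages none of the 18 changes of the 3 miRNAs reached 4-fold. Of the miRNAs reaching 100 reads in either library of a step, the share that reached 4-fold in either direction was 58.3% (of 309) at the first step (SSCs to pre-leptotene), 0.505% (of 198) to leptotene, 11.2% (of 224) to zygotene, 20% (of 225) to pachytene, 12.1% (of 116) to round spermatids and 40.8% (of 191) to mature sperm. The largest of the 18 changes were at the first and last steps. From SSCs to pre-leptotene miR-26a-5p had a log2 change of -1.60 (95% interval -1.62 to -1.59), miR-152-3p of -1.26 and miR-148a-3p of -0.94, where the median of all miRNAs was -2.33; with TMM factors, which bring that median to -0.24, the same 3 values were 0.48, 0.83 and 1.15, and without the miR-506 family in the denominator miR-148a-3p was at 0.17. The direction of this step therefore depends on the scaling. From round spermatids to mature sperm miR-26a-5p had a log2 change of 1.40 (1.36 to 1.44), against a median of -0.15, and was positive under all 8 other settings tried (1.00 to 4.12). It reached 4-fold there when the whole mature sequence had to match (2.18, median of all miRNAs 0.56) and per all reads (4.12, median 2.58).

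At the remaining steps changes were smaller. The log2 change of miR-26a-5p from leptotene to zygotene was 0.72, next to a median of 0.72 over all miRNAs, and was 0.07 with TMM factors. From pachytene to round spermatids it was -0.90 (-0.96 to -0.85), and negative under all 8 other settings (-1.29 to -0.26). From zygotene to pachytene miR-148a-3p was at -0.63 and miR-152-3p at -0.79, negative under every setting tried. Per all reads all 3 miRNAs were at least 4-fold lower in pachytene (miR-26a-5p at -4.21). The median of all miRNAs was -4.61 there, beside the drop of the miRNA share from 28.7% to 1.33%. The step of miR-26a-5p from zygotene to pachytene was 0.22, and it was negative under 4 settings: per all reads, without the miR-506 family, with 1 mismatch allowed and per hairpin reads. Over the whole mouse series the log2 distance between the highest and the lowest library was 1.69 for miR-26a-5p, 1.58 for miR-148a-3p and 2.95 for miR-152-3p, where the median of 328 miRNAs was 4.61. Scarce miRNAs are among the 328 and widen that median. As a reference, none of the 3 measured entries of the miR-30 family reached 4-fold before mature sperm, where 1 was lower, while of the 7 let-7 entries 2 were at least 4-fold higher in zygotene than in leptotene and 3 in mature sperm than in round spermatids, and 1 was at least 4-fold lower at the first step and 1 from zygotene to pachytene.

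Of the seed relatives, miR-26b-5p followed a course like that of miR-26a-5p with a larger first step, and miR-148b-3p one unlike that of miR-148a-3p. miR-26b-5p, at 2594 RPM in SSCs, had 222 in pre-leptotene, a log2 change of -3.54 that kept its sign under all settings (-1.46 with TMM factors). The ratio of miR-26a-5p to miR-26b-5p reads was 12.5 in SSCs, 48.1 in pre-leptotene and 22.3 to 39.0 in the later stages. miR-148b-3p took another course than miR-148a-3p: from 4236 RPM in SSCs it stayed between 4236 and 5200 to the zygotene library, reached 7606 in pachytene and 12990 in round spermatids, and was 1337 in mature sperm. Its last step, a log2 change of -3.28 (-3.33 to -3.23), was past 4-fold and stayed negative under all settings (-3.68 to -0.56).

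Because of this, the make-up of the seed family of miR-148a-3p turned over along the series. miR-148a-3p was 75.2% of family reads in SSCs, between 63.5% and 69.9% to the zygotene library, 48.6% in pachytene, 35.2% of those of round spermatids and 80.2% in mature sperm. miR-148b-3p was 16.3% in SSCs and 63.0% in round spermatids, the only mouse stage in which it outnumbered miR-148a-3p, and again 16.3% in mature sperm. miR-152-3p was 8.48% in SSCs and 1.85% to 5.73% later. Shares within a family do not depend on the denominator.

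**Figure D2:**
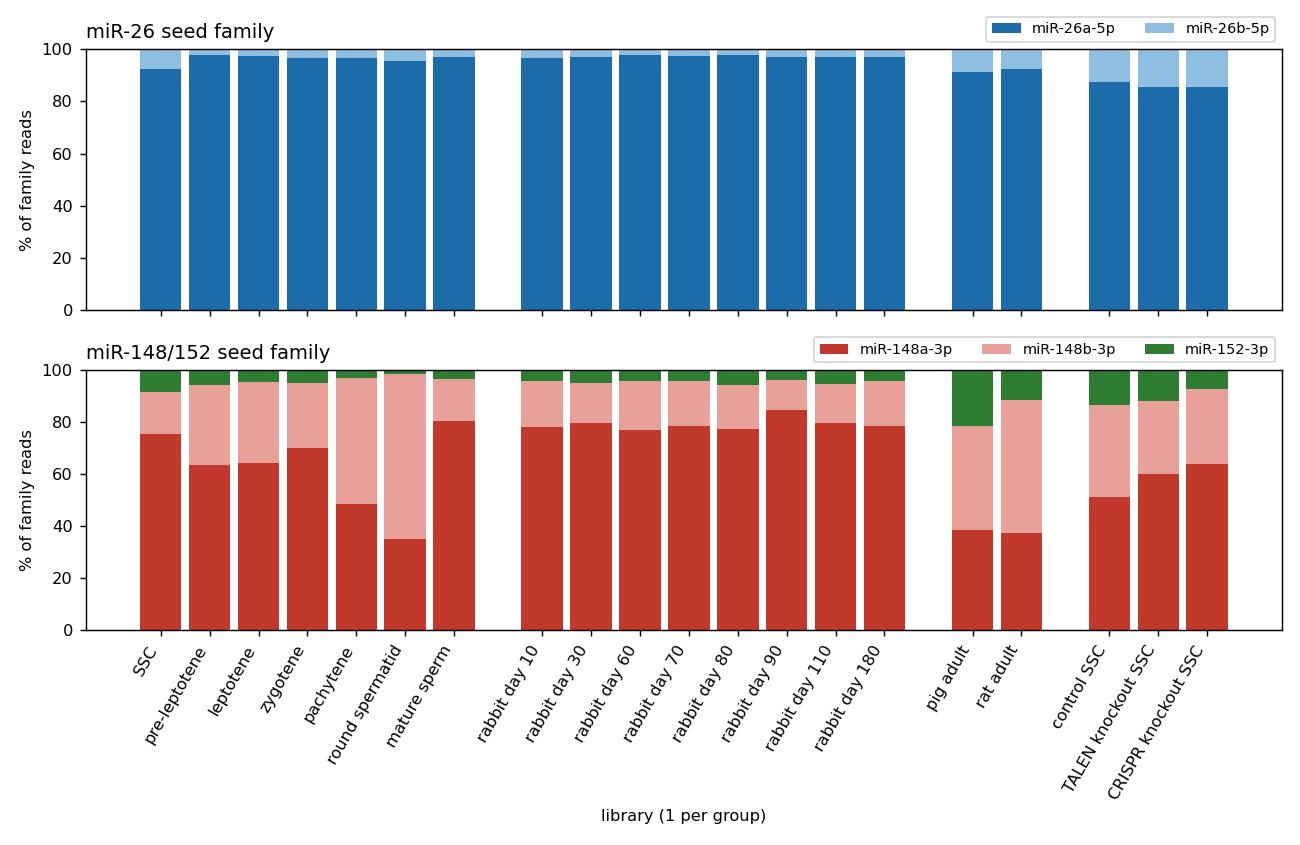
Share of each seed family's reads held by its members in the 20 libraries, in percent. miR-26a-5p makes up most of the miR-26 family in every library, while miR-148b-3p takes 63.0% of the family of miR-148a-3p and miR-152-3p in round spermatids and 51.3% in rat testis.

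Since miR-148b-3p and miR-152-3p differ by 1 base within the matched 18 nt, a read error could turn the first into the second. Of miR-152-3p reads of at least 21 nt, those with the bases of miR-148b-3p at positions 19 to 21 were 0.0732% in SSCs, 3.90% (6 of 154) in pachytene and 5.91% (11 of 186, 2.99% to 10.3%) in round spermatids, where miR-148b-3p had 34.0 reads per miR-152-3p read. Reads under 21 nt were not checked in this way.

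Marker lists of several cell types moved along the same series. The 4 measured feeder or stromal markers summed to 69975 RPM in SSCs and 8689 in pre-leptotene, and the 6 pluripotency markers to 4546 and 86.3. The Sertoli or gonadal pair (miR-202 arms) summed to 139 in pre-leptotene and 3421 in zygotene. In mature sperm all 7 epithelial markers were detected and summed to 16662, against 325 in round spermatids with miR-205-5p at 0, and the 4 blood markers summed to 1356, against 47.0 with miR-223-3p and miR-451a at 0. Which cells carried these markers, and their part in the levels of miR-26a-5p, miR-148a-3p and miR-152-3p, was not tested. The late germ cell markers miR-34b-5p and miR-449a-5p, which mark the labelled stages, summed to 6120 in pachytene and 6755 in round spermatids, and to 1.82 to 133 in the other mouse stages.

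As a description over the 7 mouse libraries, which share differences in depth and denominator, the profiles most like that of miR-26a-5p among 91 other miRNAs with at least 100 reads in every library were miR-140-3p (Spearman's rho 0.96), its relative miR-26b-5p (0.89) and miR-22-3p (0.86). miR-148a-3p was most like miR-183-5p (0.96), miR-883b-5p (0.96) and miR-152-3p (0.89), and miR-152-3p was most like miR-880-3p, miR-883b-5p and miR-878-3p (0.96 each), the last 3 being miR-506 family entries. miR-148a-3p and miR-152-3p had the highest correlation of log2 levels between members (Pearson's r 0.98), and miR-148b-3p was not like either (rho -0.21 with both).

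In the SSC cultures miR-26a-5p stayed within 1.28-fold. It had 32494 RPM in the SSC library of the stage series, 27571 in the wild type control, 28558 in the TALEN line and 25383 in the CRISPR line. That is a log2 distance of 0.36, where the median of 301 miRNAs, scarce ones included, was 1.19. miR-148a-3p had 19590, 8513, 9445 and 13701 in the same order, so that the 2 wild type cultures were 2.30-fold apart and both knockout lines lay between them. miR-152-3p had 2209, 2295, 1888 and 1601. No member reached 4-fold between the wild type cultures, where 3.99% of 301 miRNAs did. These cultures differ in labelled strain and in depth (20302560 reads against 1449449), which cannot be told apart from the culture itself. Marker sums differed between them too: from the SSC library to the control the epithelial list (7 of 7 detected in both) went from 3448 to 1167 RPM, the late germ cell pair from 133 to 17.2, the pluripotency list (6 of 6) from 4546 to 3103 and the feeder or stromal list (4 of 4) from 69975 to 59646. In the TALEN and CRISPR lines the feeder or stromal list summed to 41450 and 54504, and the epithelial list to 2977 and 2137 with miR-429-3p at 0. The part of the cells that carry these markers in the members' levels was not tested.

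Loss of miR-741 was not accompanied by a 2-fold change of any member in the same direction in both lines, while 27 of 145 miRNAs (18.6%) passed that rule. Both ratios share the control library. For miR-26a-5p the log2 difference from control was 0.05 (0.01 to 0.09) in the TALEN line and -0.12 (-0.17 to -0.07) in the CRISPR line. miR-148a-3p was at 0.15 (0.08 to 0.22) and 0.69 (0.62 to 0.76), and miR-152-3p at -0.28 (-0.44 to -0.12) and -0.52 (-0.71 to -0.34). The largest of these 6 differences, 0.69, was smaller than the 1.20 between the wild type cultures for the same miRNA. Within the family, miR-148a-3p was 51.0% of reads in control, 59.9% in the TALEN and 63.7% in the CRISPR line.

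Rabbit testis had the highest miR-26a-5p shares of miRNA reads in the series: 82801 RPM at day 10, 122686 at day 30, 142000 at day 60, 141714 at day 70, 153747 at day 80, 138799 at day 90, 100793 at day 110 and 92102 at day 180. It was the third most abundant miRNA at day 10 and the second at each later age. The middle ages were the high ones, and days 60 and 70 differ by less than counting error. miR-148a-3p had 24297, 27385, 24942, 22667, 22424, 27821, 30370 and 34886 at the same ages, lowest at days 70 and 80, where miR-26a-5p was high, and highest at day 180. miR-152-3p ranged from 1253 (day 70) to 2118 (day 110) with a median of 1597, below both seed relatives at every age. These orders hold for shares of miRNA reads. Per 1000000 reads of any kind day 180 was the lowest age for all 3 miRNAs, beside the fall of the miRNA share: miR-26a-5p went from 44100 at day 10 to 73854 at day 60 and 6458 at day 180, below the SSC cultures, miR-148a-3p from 14069 at day 30 to 2446, and miR-152-3p from 900 at day 30 to 140. With TMM factors day 180 was the lowest age for all 3 as well, and day 90 the highest for miR-148a-3p. The log2 distance between the highest and lowest age, again by RPM, was 0.89, 0.64 and 0.76 for the 3 miRNAs, where the median of 204 miRNAs was 1.82. Here too scarce miRNAs widen the median.

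Over the 8 ages 66 of those 204 miRNAs (32.4%; 16.7% fell and 15.7% rose) had a level trend by the exact two-sided permutation test of Spearman's rho with Benjamini-Hochberg adjustment. The 2 relatives, which did not enter the choice, had none. miR-26b-5p (2748 to 4120 RPM) had a rho of 0 and Pearson's r of -0.09 with age (exact permutation p = 0.829). miR-148b-3p (3815 at day 90 to 7544 at day 180) had a rho of 0.14 (exact permutation, adjusted p = 0.803) and r of 0.51 (exact permutation p = 0.187), which was -0.19 without days 10 and 180; per all reads its rho was -0.93 (exact permutation, adjusted p = 0.0068), beside the fall of the miRNA share. miR-26a-5p kept 96.8% or more of miR-26 reads at every age, and miR-148a-3p 76.9% to 84.5% of its family, a narrower range than in the mouse stages.

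Rabbit libraries are whole testis, and other lists moved with age in them. The late germ cell pair summed to 21.9 RPM at day 10 and 9796 at day 180, the epithelial list to 219 (7 of 7 detected) and 8178 (5 of 7, with miR-205-5p and miR-429-3p at 0), the feeder or stromal list to 51007 and 34232, and the Sertoli or gonadal pair, with miR-202-3p at 0 in these libraries, went from 4629 at day 10 to 20989 at day 70. The muscle or endothelial list went from 1903 (day 60) to 6563 (day 180, with miR-206-3p at 0). Their part in the members' levels was not tested. Among 95 other miRNAs the profiles most like that of miR-26a-5p over the 8 ages were miR-31-5p (rho 0.95), miR-30e-3p (0.88) and miR-374b-5p (0.86). miR-148a-3p was most like miR-17-5p and miR-20a-5p (0.90 each) and a shared entry of let-7a-1-3p and let-7c-2-3p (0.88), and miR-152-3p was most like miR-23a-3p (0.86), the joint entry of miR-27a-3p and miR-27b-3p (0.79) and miR-451a (0.71).

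Adult pig testis had 35570 RPM of miR-26a-5p, 9325 of miR-148a-3p and 5204 of miR-152-3p, the highest miR-152-3p share of the 20 libraries (per all reads 481, below the 900 of rabbit day 30). Adult rat testis had 46099, 6926 and 2132. Per hairpin reads the order of miR-26a-5p turned, with less in rat than in pig. In rat miR-148a-3p did not lead its family, and in pig it was about level with miR-148b-3p. It was 38.7% of family reads in pig and 37.2% in rat. miR-148b-3p had 39.8% and 51.3%, and miR-152-3p 21.6% and 11.5%. The pig intervals of miR-148a-3p (38.10% to 39.22%) and miR-148b-3p (39.21% to 40.34%) overlapped. These are single adult libraries matched to mouse sequences, so species, animal and library cannot be told apart.

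The 3′ ends of the reads gave patterns that the levels do not show. The forms that carry them are printed as sequenced (T for U), with the bases beyond the RefSeq mature 3′ end in capitals.
miR-26a-5p with 1 added uridine: ttcaagtaatccaggataggctT
miR-26a-5p with 2 added uridines: ttcaagtaatccaggataggctTT
miR-148a-3p longer by a hairpin base: tcagtgcactacagaactttgtC
miR-152-3p with 1 added uridine: tcagtgcatgacagaacttggT
miR-152-3p with uridine and adenosine: tcagtgcatgacagaacttggTA
A base was called added where it does not match the mouse hairpin, in rabbit, pig and rat too, so in those species a form called longer or tailed rests on the mouse hairpin.

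Most miR-26a-5p reads ended at the RefSeq mature 3′ end, 70.9% (round spermatids) to 89.0% (SSCs). Tails of uridine only were 3.18% in SSCs. From pre-leptotene to pachytene spermatocytes they were 5.84%, 5.26%, 4.35% and 9.04%, in round spermatids 14.0% (13.1% to 15.0%) and in mature sperm 5.64%. Pachytene and round spermatid libraries were the highest, and in round spermatids tails of 2 uridines (6.15%) were as common as tails of 1 (6.11%), while in SSCs they were 0.620% against 2.50%. Over the 47 miRNAs with at least 1000 reads in round spermatids the median share of uridine tails was 3.61%, and 39 of them had less than miR-26a-5p. In mature sperm 19.9% of miR-26a-5p reads were shorter than the mature form, against 5.57% to 13.1% in the other mouse stages, beside a median of 22.8% over 91 miRNAs in that library and 10.0% over 145 in SSCs.

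In rabbit the uridine tails of miR-26a-5p were most frequent in the youngest testis: 13.9% at day 10, 9.61% at day 30, 5.52% at day 60, 3.97% at day 70, 3.59% at day 80, 4.39% at day 90, 4.24% at day 110 and 4.82% at day 180. The share was lower at each age up to day 80 and slightly higher again from day 90 on. The rank test over the 8 ages gave a rho of -0.57 (exact permutation, adjusted p = 0.302 over 12 tests). The median of 40 miRNAs with at least 1000 reads at every age was 2.62% at day 10, 2.54% at day 80 and 3.69% at day 180. Comparing days 10 and 80, a pair chosen after these values were seen, miR-26a-5p had the largest drop of the 40, 10.3 percentage points, followed by miR-101a-3p (33.7% to 23.5%), miR-26b-5p (10.5% to 4.56%) and miR-148b-3p (20.3% to 15.9%); 22 of the 40 were higher at day 10 and the median difference was 0.0339 points. By RPM the miR-26a-5p level was lowest at day 10 and highest at day 80, but day 180 was the lowest per all reads, with TMM factors and per hairpin reads, and day 60 the highest per all reads.

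**Figure D3:**
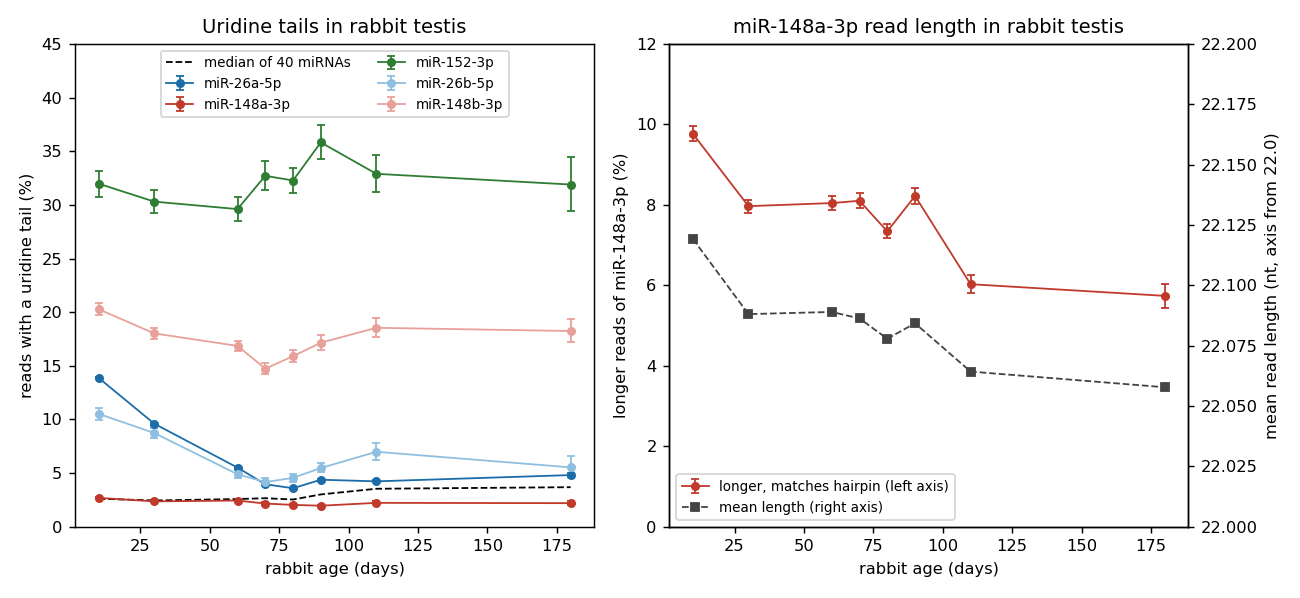
Left, share of reads with a uridine tail (percent) against rabbit age (days) for the 3 miRNAs and their relatives, with Clopper-Pearson 95% intervals, and the median of 40 miRNAs (dashed); miR-26a-5p goes from 13.9% at day 10 to 3.59% at day 80. Right, share of miR-148a-3p reads longer than the mature form (percent, left axis) and its mean read length (nt, right axis, which does not start at 0); both are highest at day 10 and lowest at day 180.

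miR-148a-3p stood out by a form that matches its hairpin beyond the mature end, mostly the mature sequence with 1 further C (45.4% of its reads in leptotene, for example). Such longer reads were 21.2% in SSCs. They were 47.7%, 46.8%, 39.8% and 34.0% from pre-leptotene to pachytene spermatocytes, 29.7% for round spermatids and 30.7% for mature sperm. Pre-leptotene and leptotene reads were thus split almost evenly between the mature and the longer form (47.8% exact in pre-leptotene). The median share of longer reads over all miRNAs with at least 1000 reads did not move in that way, with 6.29% in SSCs and 6.58% in pre-leptotene. Other miRNAs had shares as large, since 97 of 145 lay below miR-148a-3p in SSCs and 77 of 97 in pre-leptotene. The relative miR-26b-5p had 49.6% to 82.2% longer reads over the 20 libraries. The control SSC culture had 27.7%, the TALEN line 22.1% and the CRISPR line 24.2%. Outside mouse the form was less common: 5.74% to 9.77% in rabbit, 4.64% in rat and 0.569% in pig.

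The 4 end measures (mean length, exact share, uridine tails, adenosine tails) were tested for a trend over rabbit age for each of the 3 miRNAs, 12 tests in all. Only the mean length of miR-148a-3p passed. It was 22.12 nt at day 10 and 22.06 nt at day 180, with a rho of -0.95 (exact permutation p = 0.00114, Benjamini-Hochberg adjusted p = 0.0137). Its longer reads were 9.77% at day 10, 7.97% at day 30, 8.05% at day 60, 8.10% at day 70, 7.34% at day 80, 8.22% at day 90, 6.03% at day 110 and 5.74% at day 180. By Pearson's r of -0.89 it did not pass (exact permutation, adjusted p = 0.0774), and r was -0.79 without days 10 and 180. Leaving out day 10, 70, 110 or 180 gave an adjusted p of 0.081 by the same exact permutation test, so the call depends on each of these 4 ages. The miRNA share of reads fell over the same ages, and its part in the trend was not tested. The end measures were not tested over the other miRNAs, so a shift shared by many miRNAs cannot be told apart from one of miR-148a-3p.

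miR-152-3p was the most tailed of the 3. Uridine tails made up 19.7% of its reads in SSCs, 38.7% in both pre-leptotene and leptotene, and 36.7% in zygotene. The share was 48.1% (40.1% to 56.2%) in pachytene, 42.2% (35.1% to 49.7%) for round spermatids and 35.4% for mature sperm. SSC reads were the least tailed of the mouse stages, and the other SSC cultures, at 21.7% to 25.3%, were close to them. In rabbit the share stayed between 29.6% and 35.8%, first among the 40 miRNAs at each age but day 10, where it was second. Pig had 28.1% and rat 31.8%. By comparison, miR-148a-3p, with the same seed, had 1.41% to 4.53% in all 20 libraries, and miR-148b-3p 14.7% to 34.1%.

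Mature sperm carried a miR-152-3p form that was rarer elsewhere. Reads ending in a uridine followed by an adenosine were 31.3% of its 1015 reads in mature sperm (28.5% to 34.3%), 2.66% in SSCs, 10.7% in pre-leptotene, 5.88% in round spermatids, 2.90% to 4.97% in rabbit and 6.25% in pig. The same tail was 0.0601% of miR-148a-3p, 0.779% of miR-148b-3p and 0.0661% of miR-26a-5p reads in mature sperm. Adenosine-only tails of miR-152-3p were 16.0% (11.1% to 22.1%) in round spermatids (187 reads), where the remaining mouse stages had 1.58% to 5.19%. In rabbit they were lowest at day 10 (6.69%) and highest at days 70 (11.8%) and 80.

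**Figure D4:**
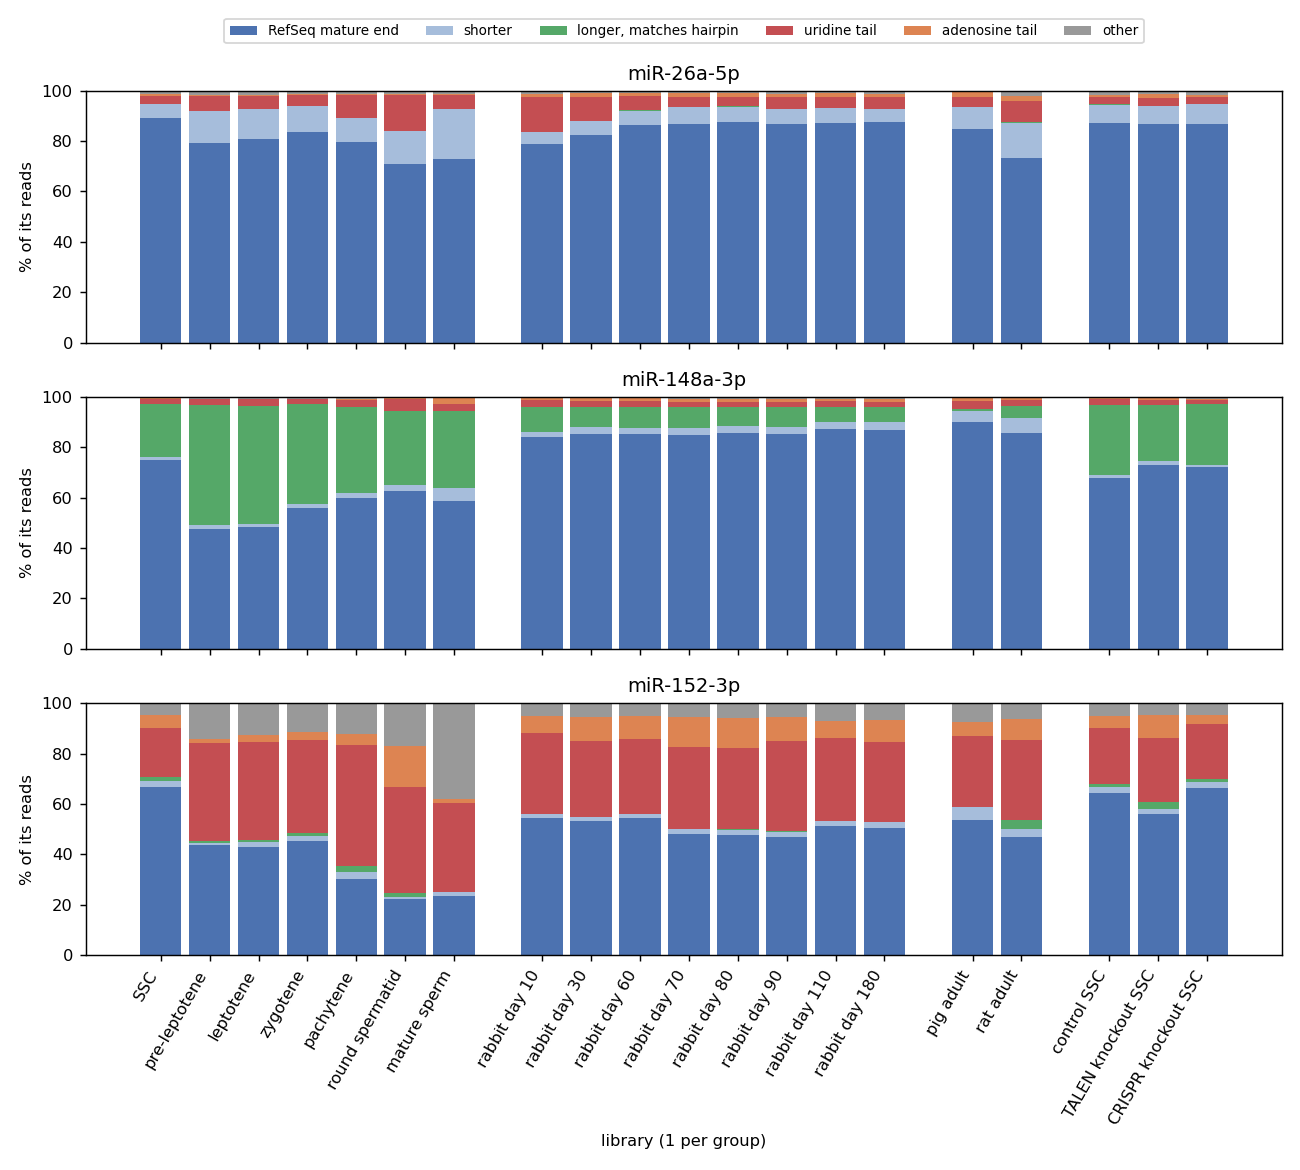
Share of the reads of each miRNA (percent, stacked to 100) by 3′ end in the 20 libraries: at the RefSeq mature end, shorter, longer and matching the hairpin, with a tail of uridine only, of adenosine only, or other. Longer reads of miR-148a-3p reach 47.7% in pre-leptotene spermatocytes, and in miR-152-3p the class other, mostly uridine followed by adenosine, is 38.0% in mature sperm.

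The opposite arm of each hairpin was rare. In SSCs the 2 partner arms of miR-26a-5p had 689 reads against 164622 (0.417%), 642 of them miR-26a-2-3p and 47 miR-26a-1-3p. In mature sperm there were none, which allows at most 0.00381% by the Clopper-Pearson interval. In rabbit all but 1 of the partner reads matched miR-26a-1-3p. Rabbit reads were matched to the mouse sequences of both arms, so a rabbit arm that differs from mouse would not be counted. miR-148a-5p was 1.57% of both arms in SSCs, 0.449% in mature sperm and 0.608% to 0.931% in rabbit. miR-152-5p was 1.24% in SSCs and was matched by 1 read in all rabbit libraries together, where the mouse sequence of that arm was used. 5′ ends varied little: reads starting up to 2 bases away from the RefSeq start were 0.0844% to 0.553% of miR-26a-5p and miR-148a-3p reads, and the highest share for miR-152-3p was 4.25% in mature sperm (45 of 1060).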

How the data were processed

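Small RNA of 20 libraries was sequenced on an Illumina instrument after TRIzol extraction, per the labels' protocols. For each library the authors deposited a list of distinct read sequences (17 to 41 nt, to 51 nt in pig) with counts of reads, not normalised; trimming steps are not given in the sources used here. The submitters' processing notes name Bowtie and, among others, the builds OryCun2.0 and GRCm38. No coordinates were taken from the files.

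Reads of 18 to 26 nt were matched by their first 18 nt to RefSeq mature mouse miRNAs (GRCm38.p6), also in rabbit, pig and rat. The denominator was the 686 entries numbered below 1000 or named let-7; 11 of 50 names on the marker and comparison lists had no entry (miR-150-5p, miR-486a-5p, miR-143-3p, miR-145a-5p, miR-1a-3p, miR-133a-3p, miR-122-5p, miR-124-3p, miR-34c-5p, miR-30b-5p, miR-30d-5p). 3′ ends were compared with the RefSeq hairpin, and gene context came from GENCODE M21. Counts of 0 were set to 3 in ratios. Trends over rabbit age used exact permutation of Spearman's rho with Benjamini-Hochberg adjustment at 0.05 (Python 3.11.15, scipy 1.17.1); the intervals are at 95%. TMM factors came from edgeR 4.0.16 and the trend test and end classes were tested on simulated data. The totals were 597732 to 25908109 reads. Named were the 3 members, their seed relatives, partner arms, the 3 most similar profiles and the marker lists. The members and lists were chosen with earlier results of these data known, and the denominator of reads lying whole within 2202 GENCODE hairpins was added after the data were seen. The samples of each group are 1 library, so nothing was averaged.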

Additional observations from a re-analysis of the deposited data

How the results depend on the processing

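The count of member changes of at least 4-fold between mouse stages, 0 of 18, was 6 per all reads (all 3 miRNAs down to pachytene and up to mature sperm), 1 with the whole mature sequence matched (miR-26a-5p to mature sperm) and 3 when called at 2-fold; the other 6 settings gave 0. Per all reads the median log2 change of all miRNAs was itself -4.61 to pachytene and 2.58 to mature sperm, so these 6 calls are not particular to the members. The share of all miRNAs called is not given for these settings. Between wild type SSC cultures 0 became 1 (miR-148a-3p) at 2-fold. The knockout count stayed at 0 under all 8 settings. The 66 miRNAs with a rabbit level trend were 125 per all reads, 21 of 96 with at least 100 reads in every rabbit library, and 16 to 58 with 1 age left out (16 without day 110 or 180, and 29 to 31 without day 10, 30 or 60). The 1 rabbit end measure with a trend was 0 with Pearson's r, 0 without days 10 and 180, and 0 to 2 with 1 age left out (0 without day 10, 70, 110 or 180, and 2 without day 80). Member levels moved by a factor of 0.0133 (pachytene) to 0.533 per all reads, by up to 4.05 without the miR-506 family, by up to 2.99 (mature sperm) with the whole mature sequence matched, by 0.412 (CRISPR line) to 1.98 (pre-leptotene) with TMM factors, and to 0.601 with 1 mismatch and 0.613 per hairpin reads (both in rat). The cause of these shifts was not tested. Depth limits miR-152-3p most, with 158 and 187 reads in pachytene and round spermatid libraries. No paired analysis was possible because every group is 1 library.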
